A study of Mus musculus with 69 samples.

Results

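The genes described here are 7 in number: the receptors Adgre1, Adgre4, Csf1r and Itgam and the transcription factors Maf, Irf8 and Spi1, a list of macrophage identity genes named by symbol. The list was chosen with earlier results of these data known. Its counts beside the shares of all genes are therefore descriptive and carry no test. Each symbol matched 1 of the 56980 features in the deposited tables, and all 7 were among the 12008 genes that passed the filter on low counts. At day 13 after editing, 6 of the 7 were lower in Atp6v1a and in Grn knockout macrophages than in control cells, where 11.6% and 12.7% of all genes tested were lower, and 5 were lower in Pik3c3 knockout macrophages, where 6.1% were. When the difference between library protocols was not removed, the Pik3c3 decreases of Adgre1 and Csf1r did not pass the test. The Csf1r call there also ended when any single library of the comparison was left out. Only 1 of the 5 Pik3c3 libraries of that day was made with the Regular protocol, so these decreases lean on the protocol term. In Trem2 knockout macrophages Maf was higher at both days, and Adgre4 was lower at both days. The Maf increase of day 13 did not pass when the difference between library protocols was left in. Spi1 passed the test in none of the 12 comparisons of a target with its control, although some other settings called it lower in Atp6v1a and Grn cells of day 13 and in Trem2 cells of day 4.

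As background, macrophages depend on the receptor tyrosine kinase encoded by Csf1r, which binds the growth factors M-CSF and IL-34 and carries the signal for survival and proliferation. Spi1 encodes PU.1, an ETS-family factor that opens and occupies myeloid enhancers from the progenitor stage on, and the products of Irf8 and Maf act with it at many of the same elements. Adgre1 encodes F4/80, the classical surface marker of mouse macrophages, and Itgam encodes CD11b, the alpha chain that pairs with the beta chain Itgb2 to form a complement receptor.

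Macrophages were grown from the bone marrow of wild-type mice. Each of 5 biological replicates pooled the marrow of 6 mice, which was cultured with 50 ng/mL of M-CSF until day 7, stored frozen, and returned to the same M-CSF concentration for editing. Cas9 ribonucleoprotein cut the Rosa26 locus in control cells, and in the other groups 1 of 6 genes: Atp6v1a (the catalytic subunit of the lysosomal proton pump), Npc1 (the lysosomal cholesterol exporter), Pik3c3 (the lipid kinase VPS34), Ctsd (the protease cathepsin D), Grn (progranulin) and Trem2 (a lipid-sensing receptor). The series description gives RNA taken 4 or 13 days after editing, whereas the sample labels give the same numbers in hours. Days are used here, and this conflict was not settled by the files. The design gave 14 groups of 5 libraries, except Npc1 at day 4 with 4 libraries (69 in all). The cells were edited as populations, so a group may mix edited and unedited cells, and the share of edited cells is not known here. The targeted message, which does not measure that share, stood between 17.2% and 73.5% of the Rosa26 level over the 12 comparisons.

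Libraries held 2194525 to 4688241 counts (median 3404701). They were made with a Regular protocol (47 libraries) or a Low-input protocol (22 libraries), unevenly spread: all day 4 libraries but Trem2 replicate 1 were Regular, while at day 13 all 5 Trem2 libraries and 1 Rosa26 library (replicate 5) were Low-input. The protocol touched the 7 genes themselves. Low-input libraries had more Adgre1 (log2 difference 0.54 ± 0.06, SE), Spi1 (0.29 ± 0.05) and Csf1r (0.23 ± 0.09), and less Maf (-0.85 ± 0.05), Itgam (-0.68 ± 0.05) and Irf8 (-0.54 ± 0.07). Against this count of 6 of 7 stand 67% of all genes tested. Fold changes below are log2 values from a fit that removes this difference, whereas levels are CPM, counts scaled to the same library total, and keep it. Single Low-input libraries are marked, all Trem2 libraries of day 13 are Low-input, and group means of day 13 for the other targets mix both protocols. Within-protocol changes are given for the main results of day 13. Those within Low-input libraries compare with a single Rosa26 library, replicate 5, which is assumed to vary like the other groups, so a pass there is no replicated support.

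Among macrophage markers outside the 7 genes, Lyz2 stood at 4910.1 to 19387 CPM, Cd68 at 509 to 1033, Ptprc at 197 to 548, Mertk at 19.9 to 217 and Fcgr1 at 14.3 to 92.1 CPM over the 69 libraries. Dendritic cell, lymphocyte and mast cell markers summed to at most 12.9 CPM in any group mean, and neutrophil markers to at most 32.8 CPM. In Rosa26 cells the sum of 10 neutrophil markers averaged 24.9 CPM at day 4 and 3.20 CPM at day 13. The summed level of 8 stromal markers was 90.0 CPM in Rosa26 replicate 2 and 309 CPM in replicate 5 of day 13, against 22.7 to 35.1 CPM in the other 3 libraries of that group, and 7 monocyte markers summed to 79.4 and 130.5 CPM against 6.34 to 13.2 CPM. The highest monocyte sum was in Trem2 replicate 2 of day 13 (184 CPM, with 66.1 CPM of stromal markers), and Trem2 replicate 3 (79.7 CPM) and Pik3c3 replicate 1 (43.8 CPM) of that day were also raised. Results against Rosa26 at day 13 are also given without Rosa26 replicates 2 and 5 where a call changed. The sum of 20 brain-associated genes, most of it from Mbp and Olfm1, averaged 357 CPM in Grn and 374 CPM in Trem2 cells of day 4 against 286 CPM in Rosa26 cells, and 131 CPM in Grn cells of day 13 against 347 CPM. The sum of 9 osteoclast genes, most of it from Atp6v0d2, averaged 66.5 CPM in Trem2 cells of day 4 against 234 CPM, and 94.7 against 413 CPM at day 13. The sum of 7 erythroid genes averaged 15.6 CPM in Grn and 19.9 CPM in Trem2 cells of day 4 against 2.95 CPM, with 3 of 3 tested genes higher in both, and 1.75 CPM in Grn cells of day 13 against 13.97 CPM, with 3 of 3 lower. The part of these markers in the results below was not tested, apart from a fit with the brain-associated sum as a covariate.

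Of the 7 genes, 3 had an entry in RefSeq's promoter table, and 2 of these are shown. Adgre4 passed the test against Rosa26 in more of the 12 comparisons than any other of the 7. Itgam fell at day 13 in Atp6v1a, Pik3c3 and Grn cells, as Adgre4 also did. Each run gives the 250 bases before the annotated start on the plus strand of GRCm38.p6, and capitals mark matches to GAGGAA, a core of PU.1 sites, on either strand.
Itgam, chr7:128062390-128062639: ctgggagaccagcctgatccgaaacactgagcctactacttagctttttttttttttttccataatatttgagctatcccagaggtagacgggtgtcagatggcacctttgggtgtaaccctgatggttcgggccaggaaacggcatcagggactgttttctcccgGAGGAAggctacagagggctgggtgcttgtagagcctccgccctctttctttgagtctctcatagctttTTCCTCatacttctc
Adgre4, chr17:55749734-55749983: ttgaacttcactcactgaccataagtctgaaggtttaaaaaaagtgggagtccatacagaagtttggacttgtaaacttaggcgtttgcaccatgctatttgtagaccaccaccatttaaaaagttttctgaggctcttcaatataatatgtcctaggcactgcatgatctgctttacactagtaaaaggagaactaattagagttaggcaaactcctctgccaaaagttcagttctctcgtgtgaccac
The Itgam window held 2 matches, 79 bases before the start on the plus strand and 10 bases before it on the minus strand, and the Adgre4 window held none. Of the 32851 promoters in the table, 23.3% held at least 1 match in the same window. A MAF site core (TGCTGA, in 16.1% of promoters) was found in neither window on either strand. GC content was 49.6% for Itgam and 39.6% for Adgre4.

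At day 4 the comparisons with Rosa26 split by target. None of the 7 genes passed the test (edgeR, adjusted p under 0.05) in Atp6v1a, Npc1, Pik3c3 or Ctsd cells, where 0.00833%, 0.00833%, 0.175% and 0.125% of all genes tested were called (lower alone, 0.0583% in Pik3c3 and 0.075% in Ctsd cells). At an unadjusted p under 0.05, 0, 1, 2 and 2 of the 7 passed in these 4 comparisons, and DESeq2 called 0 in each. In Grn cells 3 of the 7 were lower and 0 higher, where 3.6% of all genes were lower, 4.45% higher and 8.04% called in either direction. In Trem2 cells 3 were lower and 1 higher, where 12.9% and 11.4% of all genes were.

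At day 13 the calls were more numerous. In Atp6v1a cells 6 of the 7 were lower and 0 higher, where 11.6% of all genes were lower and 24.4% called in either direction. In Grn cells 6 were lower and 0 higher (12.7% of all genes lower, 25.2% called), and in Pik3c3 cells 5 were lower and 0 higher (6.1% lower, 7.11% higher, 13.2% called). In Npc1 cells 2 were lower and 0 higher (1.76% of all genes lower, 2.71% higher, 4.46% called). In Trem2 cells 1 was lower and 2 higher, where 10.9% and 11.3% of all genes were. None was called in Ctsd cells, where 0.2% of all genes were, 1 of the 7 passed at an unadjusted p under 0.05, and DESeq2 called 0. These 6 comparisons share the Rosa26 libraries, so their values are set side by side and not counted as separate evidence. The median log2 fold change of the 7 genes was -0.96 in Atp6v1a, -0.68 in Grn, -0.40 in Pik3c3, -0.17 in Npc1, -0.14 in Ctsd and 0.11 in Trem2 cells, and that of all genes tested lay between -0.02 and 0.03.

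**Figure D1:**
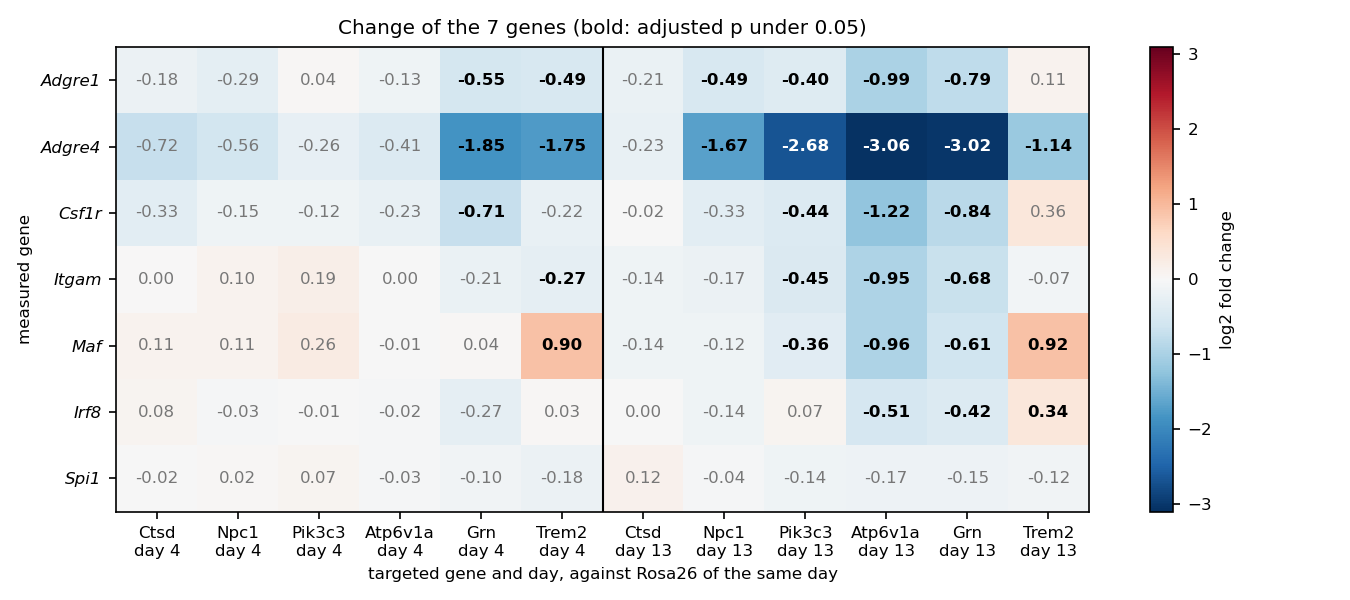
Log2 fold change of each of the 7 genes (rows) in each targeted group against Rosa26 cells of the same day (columns), with bold type for an adjusted p under 0.05. The Adgre4 row holds the strongest decreases, down to -3.06 in Atp6v1a cells of day 13, the Maf row holds increases of 0.90 and 0.92 in Trem2 cells, and no value of the Spi1 row is bold.

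Adgre4 (ENSMUSG00000032915.7), an adhesion G protein-coupled receptor of mouse myeloid cells related to F4/80, had the widest range of the 7 genes, from 0.815 to 52.7 CPM (3 to 180 counts a library). In Rosa26 cells it stood at 7.63, 10.7, 10.0, 10.1 and 11.7 CPM at day 4 and at 42.9, 36.3, 36.7, 27.8 and 45.5 (Low-input) CPM at day 13. All 5 libraries of day 13 lay above all 5 of day 4, and the log2 difference was 1.91 ± 0.23 (adjusted p = 2.58e-10). It was the 1 gene of the 7 that passed this comparison, in which 15% of all genes were higher and 30.6% were called in either direction. The others stood at 0.24 ± 0.15 (Csf1r), 0.20 ± 0.09 (Maf), 0.16 ± 0.12 (Irf8), 0.15 ± 0.10 (Adgre1), 0.06 ± 0.09 (Itgam) and -0.02 ± 0.09 (Spi1). Maf passed with DESeq2 (0.24, adjusted p = 0.0215), with its size factors, with the brain-associated covariate, and without Rosa26 replicate 2 of day 13 (0.24, adjusted p = 0.0414) or replicate 1 of day 4 (0.27, adjusted p = 0.0167). Csf1r passed in a fit of only these groups (0.30, adjusted p = 0.0177). Of the neutrophil markers, 3 of 3 tested were lower at day 13 (median -3.34), and their part in the control change was not tested.

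At day 4 Adgre4 stood at 2.97, 0.815, 1.76, 2.87 and 5.14 CPM in Grn cells and at 3.41 (Low-input), 2.95, 1.72, 4.29 and 2.79 CPM in Trem2 cells. Both sets lay wholly below the Rosa26 libraries of that day. The log2 fold changes were -1.85 ± 0.33 (adjusted p = 8.06e-05) and -1.75 ± 0.32 (adjusted p = 1.22e-05). Mean levels in the other groups of that day were 6.00 ± 0.462 (SD, n = 5) in Ctsd, 6.70 ± 2.49 (n = 4) in Npc1, 7.53 ± 1.19 in Atp6v1a and 8.19 ± 2.18 CPM in Pik3c3 cells, and none of these passed the test. The Ctsd libraries did not overlap with Rosa26 (highest 6.60 against lowest 7.63 CPM), with a log2 fold change of -0.72 ± 0.28 (adjusted p = 0.562). Counts of Adgre4 at day 4 were 3 to 19 a library in Grn, 5 to 16 in Trem2, 15 to 22 in Ctsd and 26 to 40 in Rosa26 cells.

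At day 13 Adgre4 stood at 4.97, 3.85 and 4.81 CPM in the Low-input and 4.1 and 7.01 CPM in the Regular libraries of Atp6v1a cells. In Grn cells it stood at 7.21, 3.20 and 5.57 (Regular) and 2.44 and 5.63 CPM (Low-input). In Pik3c3 cells it stood at 6.84, 6.02, 6.00 and 7.04 (Low-input) and 5.73 CPM (Regular). All 15 of these values lay below the lowest Rosa26 value of 27.8 CPM, and also below the lowest Rosa26 value of day 4. The log2 fold changes were -3.06 ± 0.25 (adjusted p = 5.06e-16) in Atp6v1a, -3.02 ± 0.25 (adjusted p = 2.71e-15) in Grn and -2.68 ± 0.26 (adjusted p = 3.73e-13) in Pik3c3 cells, which is 12%, 12.3% and 15.6% of the control level. Within Regular libraries the change was -2.75 in Atp6v1a and -2.70 in Grn cells, and within Low-input libraries it was -3.33, -3.45 and -2.73 in the same order as above.

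Npc1 and Trem2 cells of day 13 took middle values of Adgre4. Npc1 libraries stood at 10.7 and 10.9 (Regular) and 17.1, 14.4 and 11.4 CPM (Low-input), and the log2 fold change was -1.67 ± 0.22 (adjusted p = 3.79e-07). It was -1.74 within Regular and -1.65 within Low-input libraries, and the latter did not pass the test (adjusted p = 0.0594). Trem2 libraries, all Low-input, stood at 19.9, 8.93, 12, 31.0 and 22.6 CPM, with 1 of them above the lowest Rosa26 library. The log2 fold change was -1.14 ± 0.24 (adjusted p = 0.000163), and against the single Low-input Rosa26 library it was -1.22 (adjusted p = 0.0483). Ctsd libraries stood at 47.2, 20.2 and 52.7 (Low-input) and 27.3 and 27.2 CPM (Regular), across the Rosa26 range (log2 fold change -0.23, 95% interval -0.63 to 0.18).

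The control rise between the days did not occur to the same extent in every target. The fold change at day 13 minus that at day 4 was -2.64 ± 0.37 (adjusted p = 2.13e-07) for Atp6v1a and -2.42 ± 0.37 (adjusted p = 2.56e-06) for Pik3c3. It was -1.17 ± 0.45 (adjusted p = 0.0862) for Grn, -1.11 ± 0.37 (adjusted p = 0.317) for Npc1, 0.61 ± 0.39 for Trem2 and 0.49 ± 0.35 for Ctsd, none of which passed. The Grn difference passed without Grn replicate 1 of day 13 (-1.39, adjusted p = 0.041) and without Grn replicate 2 of day 4 (-1.46, adjusted p = 0.0234). By fitted level, Adgre4 ran from Rosa26 and Ctsd of day 13 at the top through Trem2 and Npc1 of day 13 and Rosa26 of day 4 to Trem2 and Grn of day 4 at the bottom. Of the 13 neighbouring pairs in this order of 14 groups, 4 differed by more than their pooled SD.

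**Figure D2:**
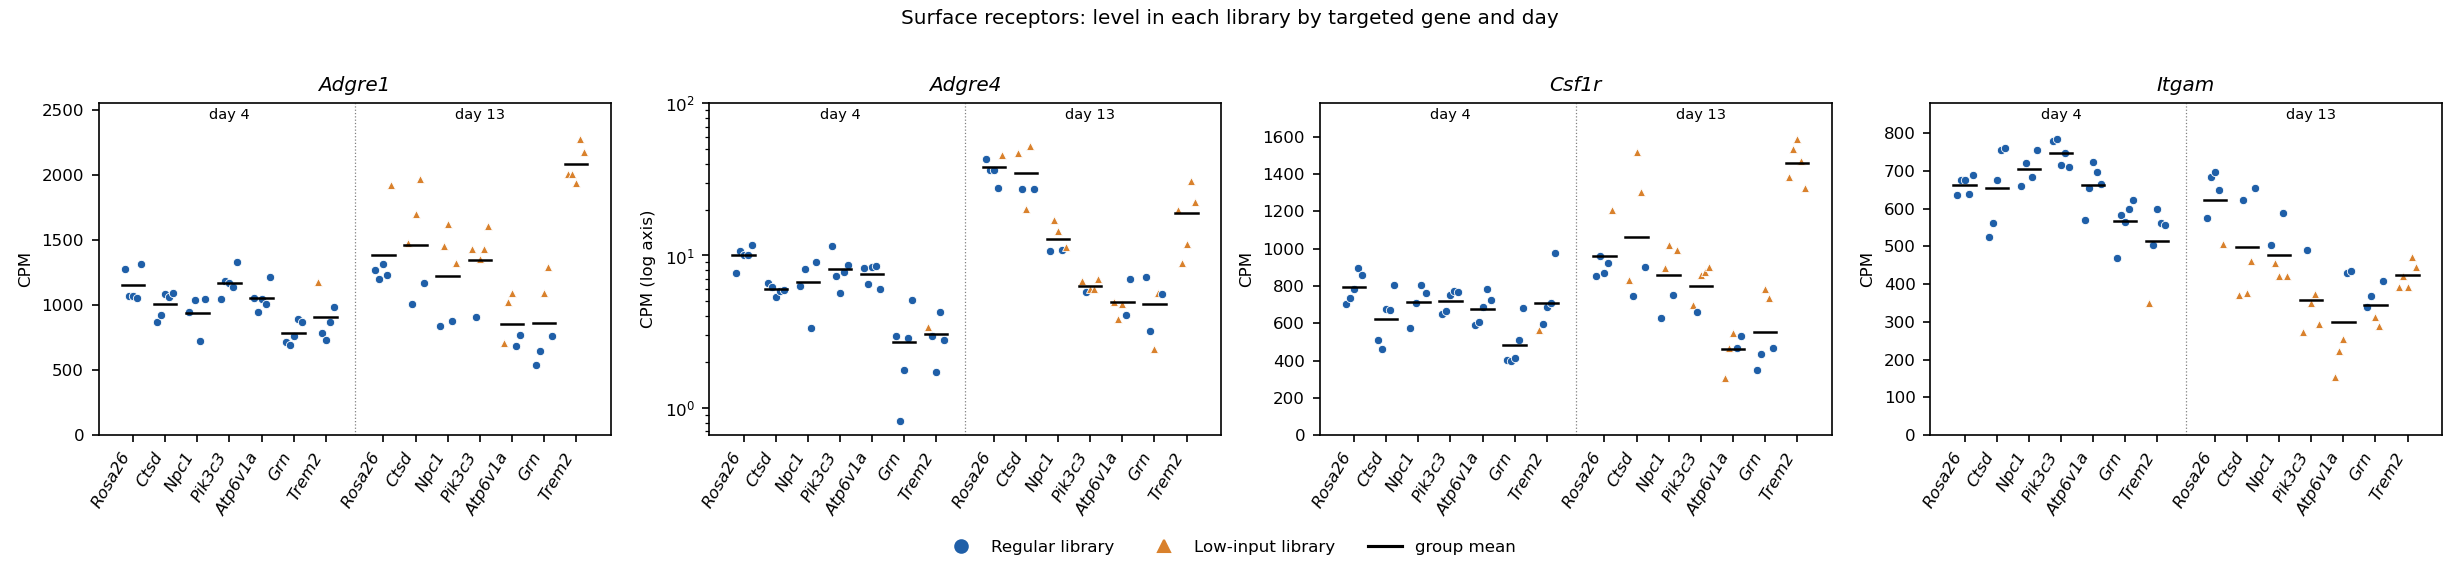
CPM of the 4 receptor genes in each library by targeted gene and day, with circles for Regular libraries, triangles for Low-input libraries and bars for group means (n = 5, Npc1 at day 4 n = 4). The Adgre4 axis is logarithmic, and all Atp6v1a, Pik3c3 and Grn libraries of day 13 lie between 2.44 and 7.21 CPM there, against 27.8 to 45.5 CPM in Rosa26.

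Adgre1 (ENSMUSG00000004730.16), which encodes F4/80, ranged from 538 to 2281 CPM over the 69 libraries. In Rosa26 cells of day 4 it stood at 1279.7, 1068, 1070.5, 1056 and 1315 CPM, and in Grn cells of that day at 718, 689.8, 765, 897 and 868 CPM. The groups did not overlap, and the log2 fold change was -0.55 ± 0.10 (adjusted p = 8.39e-05). Trem2 cells of day 4 had 1177 (Low-input), 784, 732, 874 and 983 CPM, in which the Regular libraries lay below all Rosa26 libraries and the Low-input library did not. The log2 fold change was -0.49 ± 0.10 (adjusted p = 5.93e-05), and without the protocol term it was -0.37 (adjusted p = 0.0903). The Npc1 libraries of day 4 lay between 727 and 1049 CPM, just below the lowest Rosa26 library, but with a log2 fold change of -0.29 ± 0.10 they did not pass (adjusted p = 1.00). Means were 1007 ± 105 CPM in Ctsd, 1056 ± 98.3 in Atp6v1a and 1173 ± 102 in Pik3c3 cells, with no call.

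At day 13 Rosa26 cells had 1267, 1199, 1315 and 1229.9 CPM of Adgre1 in Regular libraries and 1926 CPM in the Low-input library. Atp6v1a cells had 686 and 768 CPM in Regular and 709, 1026 and 1093 CPM in Low-input libraries. Grn cells had 538, 649 and 762 CPM in Regular and 1090.0 and 1293 CPM in Low-input libraries. Within either protocol both sets lay below the controls, and the log2 fold changes were -0.99 ± 0.10 (adjusted p = 1.17e-12) and -0.79 ± 0.10 (adjusted p = 2.28e-09). Within Regular libraries they were -0.86 and -0.85, both past the test, and against the single Low-input control -1.05 and -0.62.

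Smaller decreases of Adgre1 rested more on the protocol term. In Npc1 cells of day 13 the log2 fold change was -0.49 ± 0.10 (adjusted p = 0.00101), with 836 and 881 CPM in Regular and 1458, 1626 and 1327 CPM in Low-input libraries. It was -0.56 (adjusted p = 0.0269) within Regular libraries, -0.37 (adjusted p = 0.51) within Low-input libraries and -0.25 (adjusted p = 0.359) without the term. In Pik3c3 cells it was -0.40 ± 0.10 (adjusted p = 0.00326), with 907 CPM in the Regular library and 1353 to 1606 CPM in the 4 Low-input libraries. That change was -0.33 (adjusted p = 0.372) within Low-input libraries and -0.07 (adjusted p = 0.752) without the term. Trem2 libraries of day 13 had 2009, 2006, 1941, 2281 and 2178 CPM, all above the Low-input Rosa26 library, yet with the protocol difference removed the log2 fold change was 0.11 ± 0.11 (95% interval -0.10 to 0.32). Without the term it was 0.52 (adjusted p = 0.00446), and within Low-input libraries 0.13 (adjusted p = 0.715). Ctsd cells had a mean of 1464 ± 389 CPM and a log2 fold change of -0.21 ± 0.10, which did not pass (adjusted p = 0.489).

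Csf1r (ENSMUSG00000024621.17), the M-CSF receptor, ranged from 306 to 1590.4 CPM. In Rosa26 cells of day 4 it stood at 703, 736, 781, 896 and 861 CPM and in Grn cells at 404, 397, 412, 513 and 680.3 CPM. The groups did not overlap, and the log2 fold change was -0.71 ± 0.15 (adjusted p = 0.000648). Trem2 cells had 562 (Low-input), 595, 689, 711 and 975 CPM, in overlap with Rosa26 (-0.22 ± 0.15, adjusted p = 0.294). With the brain-associated marker sum as a covariate, a fit chosen after seeing the data, that change was -0.49 (adjusted p = 0.0027). Means of the other groups were 625 ± 139 CPM in Ctsd, 678 ± 80.1 in Atp6v1a, 713 ± 100.1 in Npc1 and 722 ± 58.4 in Pik3c3 cells, with no call.

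At day 13 Rosa26 cells had 856, 960.1, 868 and 925 CPM of Csf1r in Regular libraries and 1206 CPM in the Low-input library. Atp6v1a cells had 467 and 534 CPM (Regular) and 306, 466 and 546 CPM (Low-input), all below the lowest Rosa26 library, with a log2 fold change of -1.22 ± 0.15 (adjusted p = 1.19e-09). Grn cells had 352, 434 and 469.6 CPM (Regular) and 782 and 734 CPM (Low-input), also without overlap, with a log2 fold change of -0.84 ± 0.15 (adjusted p = 1.16e-05). The Atp6v1a decrease was -0.93 within Regular libraries and -1.48 against the single Low-input control, and the Grn decrease was -1.01 (adjusted p = 3.49e-06) within Regular and -0.60 (adjusted p = 0.159) within Low-input libraries. With the brain-associated covariate the Grn change of day 13 was -0.20 (adjusted p = 0.486).

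In Pik3c3 cells of day 13 Csf1r stood at 663 CPM in the Regular library and at 698, 859.5, 874 and 901 CPM in the Low-input libraries. The log2 fold change of -0.44 ± 0.15 lay at the threshold (adjusted p = 0.0493), and leaving out any 1 of the 10 libraries compared ended the call (-0.38 to -0.47). Within Low-input libraries it was -0.46 (adjusted p = 0.322), with the brain-associated covariate -0.18 (adjusted p = 0.44), and without the protocol term -0.30 (adjusted p = 0.148). Without Rosa26 replicates 2 and 5 it was -0.41 (adjusted p = 0.173). Trem2 libraries had 1385, 1536, 1590.4, 1472 and 1327 CPM, above all Rosa26 libraries, while the log2 fold change with the protocol difference removed was 0.36 ± 0.16 (adjusted p = 0.103). Without the protocol term it was 0.54 (adjusted p = 0.00524), with the brain-associated covariate 0.59 (adjusted p = 0.00086), with no low-count filter 0.35 (adjusted p = 0.0169), and within Low-input libraries 0.30 (adjusted p = 0.488). Npc1 (857 ± 167 CPM) and Ctsd (1061 ± 333 CPM) libraries overlapped with Rosa26 and did not pass, though Npc1 did when only the groups compared were fitted (-0.39, adjusted p = 0.0271). In the order of fitted levels Csf1r ran from Trem2 of day 13 to Atp6v1a of day 13, and 1 of 13 neighbouring pairs, Trem2 above Rosa26 at day 13, differed by more than its pooled SD.

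Itgam (ENSMUSG00000030786.19), the CD11b chain, ranged from 155 to 786 CPM. In Rosa26 cells of day 4 it stood at 635, 676, 675, 639.7 and 689 CPM, a narrow group. Trem2 cells had 504.5, 599.9, 561 and 556 CPM in Regular and 350.5 CPM in the Low-input library, all below Rosa26, with a log2 fold change of -0.27 ± 0.09 (adjusted p = 0.0215). That call ended without any of 4 single libraries (Rosa26 replicate 3 or 5, Trem2 replicate 1 or 2), with values from -0.24 to -0.25 in those fits, and without the protocol term (-0.38, adjusted p = 0.141). Grn libraries (469, 583, 566, 599.7 and 622 CPM) also lay wholly below Rosa26, with a log2 fold change of -0.21 ± 0.09 that did not pass (adjusted p = 0.141), but did within Regular libraries (-0.23, adjusted p = 0.0445) and with the brain-associated covariate (-0.26, adjusted p = 0.0431). Pik3c3 libraries lay wholly above Rosa26 (711 to 786 CPM), with 0.19 ± 0.09 and no call (adjusted p = 0.726).

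At day 13 Rosa26 cells had 576, 685, 698 and 649 CPM of Itgam in Regular libraries and 506 CPM in the Low-input library. Atp6v1a cells had 429 and 435 CPM (Regular) and 155, 223 and 255 CPM (Low-input). Grn cells had 339, 370.0 and 407 CPM (Regular) and 313 and 289 CPM (Low-input). Both sets lay below every Rosa26 library, with log2 fold changes of -0.95 ± 0.09 (adjusted p = 6.77e-13) and -0.68 ± 0.09 (adjusted p = 2.91e-08). Within Regular libraries the changes were -0.67 and -0.71, both past the test, and against the single Low-input control -1.28 and -0.67.

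Pik3c3 libraries of day 13, with 491 CPM (Regular) and 274, 351, 375 and 293 CPM (Low-input) of Itgam, were also below every Rosa26 library. The log2 fold change was -0.45 ± 0.10 (adjusted p = 0.000412), and within Low-input libraries -0.57 (adjusted p = 0.0768). Trem2 libraries (392 to 472 CPM) lay below every Rosa26 library as well, but with the protocol difference removed the log2 fold change was -0.07 ± 0.10 (adjusted p = 0.662), and without the term -0.63 (adjusted p = 0.00307). Npc1 (479 ± 70.3 CPM) and Ctsd (498 ± 134 CPM) groups overlapped with Rosa26 and were not called. In these bulk libraries fewer cells with a message and less message per cell cannot be told apart, for this and all other genes.

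Maf (ENSMUSG00000055435.7) encodes c-MAF, a basic leucine zipper factor that in mouse macrophages restrains proliferation and drives the anti-inflammatory cytokine IL-10. It ranged from 233 to 1526 CPM. In Rosa26 cells of day 4 it stood at 913, 773, 743, 713 and 879 CPM, and in Trem2 cells at 1510.4, 1526, 1393 and 1425 CPM in Regular libraries and 973 CPM in the Low-input library. All 5 Trem2 libraries lay above all Rosa26 libraries, and the log2 fold change was 0.90 ± 0.09 (adjusted p = 2.21e-13). No other group of day 4 passed, with means from 800.2 ± 59.7 CPM in Atp6v1a to 952 ± 52.7 CPM in Pik3c3 cells (0.26 ± 0.08, adjusted p = 0.336).

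At day 13 Rosa26 cells had 908, 860.3, 897 and 871 CPM of Maf in Regular libraries and 569 CPM in the Low-input library. Trem2 cells, all Low-input, had 1073, 1165, 996, 907 and 881 CPM, all above the Low-input control and in overlap with the Regular ones. The log2 fold change was 0.92 ± 0.09 (adjusted p = 3.36e-12), and within Low-input libraries 0.84 (adjusted p = 0.0014), a value that rests on that 1 control. Without the protocol term it was 0.21 (adjusted p = 0.415).

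Maf fell in 3 other groups of day 13. Atp6v1a cells had 497 and 596 CPM (Regular) and 233, 269 and 272 CPM (Low-input), with a log2 fold change of -0.96 ± 0.09 (adjusted p = 3.81e-14). Grn cells had 543, 565 and 611 CPM (Regular) and 322 and 337 CPM (Low-input), with -0.61 ± 0.09 (adjusted p = 8.86e-08). In both groups the libraries of each protocol lay below the controls of that protocol, and the changes were -0.77 and -0.53 within Regular libraries, both past the test, and -1.15 and -0.71 against the single Low-input control. Pik3c3 cells had 700.4 CPM (Regular) and 374 to 449 CPM (Low-input), with -0.36 ± 0.09 (adjusted p = 0.00322), and within Low-input libraries -0.40 (adjusted p = 0.183). Npc1 (626 ± 129 CPM) and Ctsd (625 ± 193 CPM) cells did not pass, at -0.12 ± 0.09 and -0.14 ± 0.09. In the order of fitted levels both Trem2 groups stood at the top and Pik3c3, Grn and Atp6v1a of day 13 at the bottom, and 6 of the 13 neighbouring pairs differed by more than their pooled SD.

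**Figure D3:**
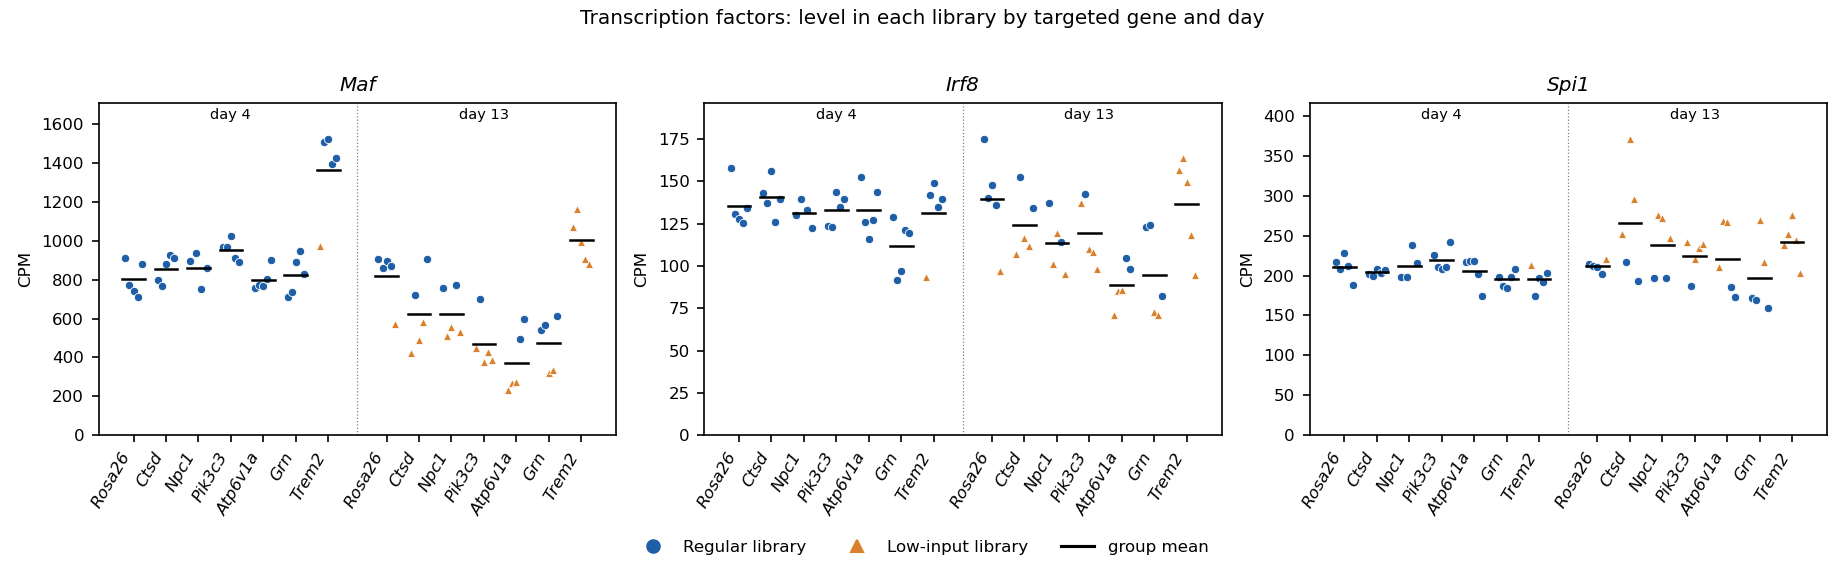
CPM of the 3 transcription factor genes in each library by targeted gene and day, with circles for Regular libraries, triangles for Low-input libraries and bars for group means (n = 5, Npc1 at day 4 n = 4). For Maf at day 4 the 4 Regular Trem2 libraries lie above all others, within Rosa26, Atp6v1a, Grn, Npc1, Pik3c3 and Ctsd at day 13 the Low-input libraries lie below the Regular ones for Maf, and group means of Spi1 stay between 195 and 266 CPM.

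Irf8 (ENSMUSG00000041515.11) encodes an interferon regulatory factor needed for monocyte and dendritic cell development, and ranged from 70.8 to 175 CPM. Day 4 means lay between 112 ± 16.2 CPM in Grn and 140.5 ± 11 CPM in Ctsd cells, against 135 ± 13.0 CPM in Rosa26 cells, and none passed (Grn -0.27 ± 0.12, adjusted p = 0.157). At day 13 Rosa26 cells had 175, 140.3, 148 and 136 CPM in Regular libraries and 97.3 CPM in the Low-input library. Atp6v1a cells had 104 and 98.2 CPM (Regular) and 70.9, 85.1 and 85.7 CPM (Low-input). Within each protocol these lay below the controls, and the log2 fold change was -0.51 ± 0.12 (adjusted p = 0.000705).

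Grn cells of day 13 had 123, 124 and 82.0 CPM of Irf8 (Regular) and 72.8 and 70.8 CPM (Low-input), with a log2 fold change of -0.42 ± 0.12 (adjusted p = 0.0052). Both decreases passed within Regular libraries (Atp6v1a -0.64, Grn -0.35) and did not within Low-input libraries (-0.28 and -0.36). With the brain-associated marker sum as a covariate the Grn value was -0.41 (adjusted p = 0.091). Trem2 cells of day 13 had 157, 164, 149, 118 and 94.4 CPM, with 1 library below the Low-input control. Their log2 fold change of 0.34 ± 0.13 lay at the threshold (adjusted p = 0.0488), was -0.11 (adjusted p = 0.593) without the protocol term and 0.21 (adjusted p = 0.407) without Rosa26 replicates 2 and 5. It also failed the test within Low-input libraries (0.51), with DESeq2 size factors (0.33), the brain-associated covariate (0.34), no low-count filter (0.34) and only the groups compared (0.50). Leaving out any of Rosa26 replicates 2, 3, 4 and 5 or Trem2 replicates 1, 2 and 3 ended the call (0.24 to 0.34). Means in Pik3c3 (119 ± 19.6 CPM), Ctsd (124 ± 18.8 CPM) and Npc1 cells (113 ± 16.4 CPM) were not called.

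Spi1 (ENSMUSG00000002111.9), which encodes PU.1, had the narrowest range, from 159 to 371 CPM. In Rosa26 cells it stood at 217, 208, 228, 212 and 189 CPM at day 4, and at 214, 211, 211, 202 and 221 (Low-input) CPM at day 13. Mean levels lay between 195 ± 9.57 CPM in Grn and 219 ± 14.3 CPM in Pik3c3 cells at day 4, and between 197 ± 46.0 CPM in Grn and 266 ± 70.5 CPM in Ctsd cells at day 13. No comparison with Rosa26 was called, and the log2 fold changes ran from -0.18 ± 0.09 in Trem2 cells of day 4 to 0.12 ± 0.09 in Ctsd cells of day 13. Small decreases are not excluded by these values, since the 95% intervals at day 13 reached -0.34 in Atp6v1a and -0.32 in Grn cells. Within Regular libraries both passed (-0.30, adjusted p = 0.0278, and -0.23, adjusted p = 0.0472), as they did without Rosa26 replicate 5 (-0.26, adjusted p = 0.0314, and -0.24, adjusted p = 0.0426). Without Rosa26 replicates 2 and 5 the Atp6v1a value was -0.27 (adjusted p = 0.0434). At day 4 Trem2 cells passed with the brain-associated covariate (-0.27, adjusted p = 0.0128). Within Low-input libraries the Atp6v1a and Grn values of day 13 were 0.16 and 0.21, against Rosa26 replicate 5 alone. With the protocol difference removed, that library was the lowest of its group for Spi1. Of 13 neighbouring pairs in the order of fitted levels, none differed by more than its pooled SD.

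The effect of a target at day 13 was set against its effect at day 4 in the same fit. For Atp6v1a 6 of the 7 genes had a lower fold change at day 13 (5.81% of all genes did, and 11.4% differed either way). Besides Adgre4 these were Csf1r (-0.98 ± 0.21), Maf (-0.95 ± 0.12), Itgam (-0.94 ± 0.13), Adgre1 (-0.86 ± 0.14) and Irf8 (-0.49 ± 0.17, adjusted p = 0.0434), with Spi1 at -0.13 ± 0.12. For Pik3c3 4 of the 7 did (2.58% of all genes lower, 6.19% either way), namely Adgre4, Itgam (-0.63 ± 0.13), Maf (-0.61 ± 0.12) and Adgre1 (-0.44 ± 0.14, adjusted p = 0.0461), while Csf1r (-0.31 ± 0.21), Spi1 (-0.21 ± 0.12) and Irf8 (0.08 ± 0.17) did not pass. For Grn 2 did (5.6% of all genes lower, 10.3% either way), Maf (-0.65 ± 0.12, adjusted p = 7.79e-05) and Itgam (-0.47 ± 0.13, adjusted p = 0.0109). The Adgre1 and Csf1r decreases of Grn cells did not pass this test of a difference between days (-0.24 ± 0.14 and -0.12 ± 0.21), nor did Irf8 (-0.15 ± 0.17) and Spi1 (-0.05 ± 0.12). With the brain-associated covariate the Csf1r difference of Grn turned to 0.70 and passed as higher (adjusted p = 0.0355).

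For Trem2 the fold change of Adgre1 was higher at day 13 than at day 4 (0.59 ± 0.14, adjusted p = 0.00361), as 4% of all genes were, with 7.95% differing either way. That of Maf was 0.90 at day 4 and 0.92 at day 13, a difference of 0.02 ± 0.12. The Csf1r difference was about as large as that of Adgre1 and did not pass (0.58 ± 0.21, adjusted p = 0.0802). It passed with the brain-associated covariate (1.08, adjusted p = 0.000106), no low-count filter (0.61, adjusted p = 0.0015), no protocol term (0.72, adjusted p = 0.0235), only the groups compared (0.75, adjusted p = 0.0108) and without Trem2 replicate 5 of day 4 (0.71, adjusted p = 0.0241). Irf8 (0.31 ± 0.17), Itgam (0.20 ± 0.13) and Spi1 (0.06 ± 0.12) did not pass. None of the 7 passed for Npc1 or Ctsd, where 0.2% (0.0833% higher) and 0.00833% of all genes did, 2 and 1 of the 7 had an unadjusted p under 0.05, and DESeq2 called 0. Beside Adgre4, values ran from -0.27 (Itgam) to -0.06 (Spi1) for Npc1 and from -0.25 (Maf) to 0.31 (Csf1r) for Ctsd. The 6 differences of Atp6v1a also passed within Regular libraries (-0.62 to -2.33) and without the protocol term (-0.65 to -2.59), and that of Adgre1 for Trem2 passed without the term (0.90, adjusted p = 0.00344). The Pik3c3 difference of Adgre1 was -0.11 (adjusted p = 0.787) without the term, and it also failed the test with library totals (-0.45), no low-count filter (-0.39), the brain-associated covariate (-0.36) and only the groups compared (-0.44). Those of Maf and Itgam for Grn passed within Regular libraries (-0.56 and -0.48) and did not without the term (-0.78, adjusted p = 0.0913, and -0.60, adjusted p = 0.141). The Irf8 difference of Atp6v1a failed the test with library totals (-0.44, adjusted p = 0.0534), no low-count filter (-0.45, adjusted p = 0.138) and the brain-associated covariate (-0.49, adjusted p = 0.0578). That difference and the Adgre1 difference of Pik3c3 were lost in 11 and 15 of the 20 fits that left out 1 library, and the Itgam difference of Grn without Rosa26 replicates 2 and 5 (-0.42, adjusted p = 0.0577), with the brain-associated covariate (-0.25, adjusted p = 0.349) and with no low-count filter (-0.41, adjusted p = 0.0806).

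Trem2 and Grn knockout cells, whose targets both bear on lysosomes and lipids in myeloid cells, were compared directly. At day 13 6 of the 7 genes were higher in Trem2 than in Grn cells and 0 lower, where 22.8% of all genes were higher and 43.5% were called either way. The log2 differences were 1.88 ± 0.28 for Adgre4, 1.52 ± 0.09 for Maf, 1.2 ± 0.15 for Csf1r, 0.90 ± 0.10 for Adgre1, 0.76 ± 0.13 for Irf8 and 0.61 ± 0.10 for Itgam, with Spi1 at 0.03 ± 0.09. All 6 also passed within Low-input libraries (5 Trem2 against 2 Grn), at 2.23, 1.55, 0.89, 0.75, 0.87 and 0.44 in the same order. Without the protocol term the Itgam difference was 0.19 (adjusted p = 0.409). At day 4 2 of the 7 were higher in Trem2 cells, Maf (0.86 ± 0.09) and Csf1r (0.49 ± 0.15, adjusted p = 0.0135), where 6.18% of all genes were higher and 15.2% called. Irf8 stood at 0.30 ± 0.12 (adjusted p = 0.0774) and passed within Regular libraries (0.34, adjusted p = 0.0325) and without Grn replicate 1 (0.37, adjusted p = 0.0279) or 4 (0.35, adjusted p = 0.0494). Adgre4 (0.10 ± 0.41), Adgre1 (0.06 ± 0.10), Itgam (-0.06 ± 0.09) and Spi1 (-0.08 ± 0.09) did not pass. The Csf1r call ended without Grn replicate 2 (0.44, adjusted p = 0.0626) or without Trem2 replicate 5 (0.34, adjusted p = 0.132).

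Atp6v1a and Pik3c3 cells of day 13, which both had low Adgre4, differed in the other genes except Spi1. In Atp6v1a cells 5 of the 7 were lower than in Pik3c3 cells (9.19% of all genes lower, 18.5% called): Csf1r (-0.78 ± 0.15), Maf (-0.60 ± 0.09), Adgre1 (-0.59 ± 0.10), Irf8 (-0.59 ± 0.12) and Itgam (-0.50 ± 0.09), all with adjusted p of at most 0.000105. Adgre4 itself differed by -0.38 ± 0.30 (95% interval -0.97 to 0.21) and Spi1 by -0.03 ± 0.08. Within Low-input libraries the 5 differences were -1.02, -0.75, -0.72, -0.58 and -0.70, all past the test. Without the protocol term those of Maf (-0.38, adjusted p = 0.23) and Itgam (-0.31, adjusted p = 0.264) were not.

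**Figure D4:**
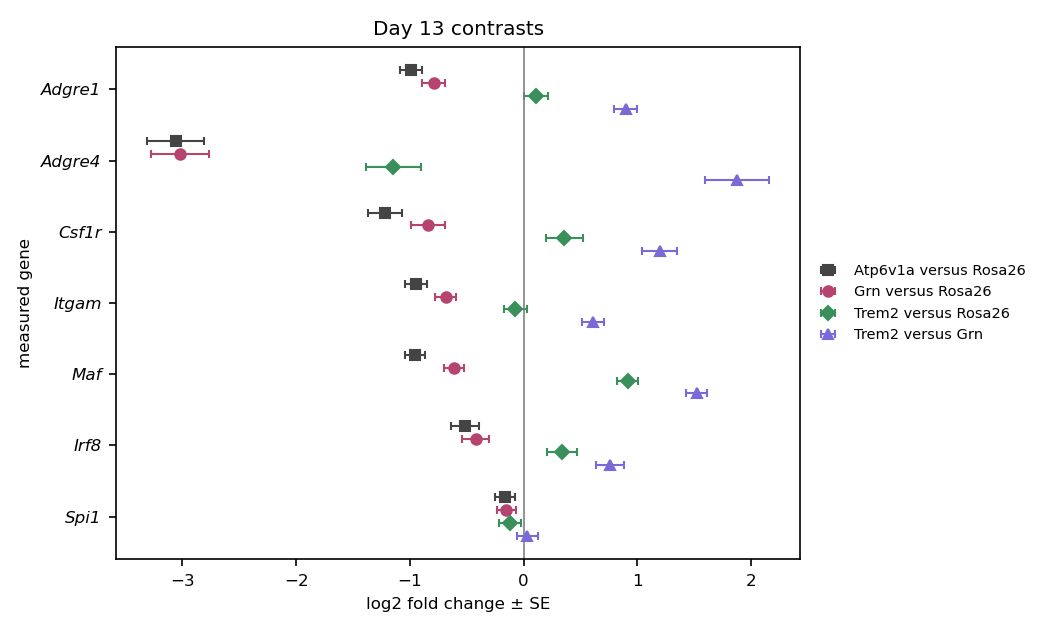
Log2 fold change ± SE at day 13 for each of the 7 genes in 4 comparisons, with the protocol difference removed. Atp6v1a and Grn cells lie left of 0 by 0.42 or more for every gene except Spi1, and Trem2 cells lie right of Grn cells by 0.61 to 1.88 for every gene except Spi1.

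Genes that work beside the 7 were read from 5 lists, which were also chosen with earlier results of these data known. Of 21 tested macrophage surface and effector genes, 11 were lower and 2 higher in Atp6v1a cells of day 13, with a median log2 fold change of -0.31 against 0.02 over all genes, of which 11.6% were lower and 12.8% higher. For the counts that follow, the shares of all genes lower and higher at day 13 were 12.7% and 12.5% in Grn, 10.9% and 11.3% in Trem2, 6.1% and 7.11% in Pik3c3 and 1.76% and 2.71% in Npc1 cells, and at day 4 they were 3.6% and 4.45% in Grn and 12.9% and 11.4% in Trem2 cells. Lower were Ccr2 (-2.65 ± 0.28), a monocyte chemokine receptor, Mertk (-1.44 ± 0.15), a receptor for apoptotic cells, and Fcgr1 (-1.29 ± 0.16), the high-affinity IgG receptor, while the fractalkine receptor Cx3cr1 was higher (1.15 ± 0.21). In Grn cells of day 13 7 were lower and 4 higher (median -0.19), with Cx3cr1 at -2.63 ± 0.26 and Siglec1, a sialic acid-binding lectin, at -1.15 ± 0.26. In Trem2 cells of day 13 10 were higher and 6 lower (median 0.24), with Mertk at 1.27 ± 0.15 and the mannose receptor Mrc1 at 1.17 ± 0.14 against Ccr2 at -2.05 ± 0.33 and the protease Ctss at -1.25 ± 0.09. Pik3c3 cells split 4 higher and 5 lower (median 0.06), with Cx3cr1 at 1.75 ± 0.21 and Ccr2 at -2.57 ± 0.31, and Npc1 cells had 5 lower and 0 higher (median -0.17).

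At day 4 8 of these 21 genes were lower and 1 higher in Grn cells (median -0.21), and 9 were lower and 5 higher in Trem2 cells (median -0.08). Cx3cr1 was lower in both, at -1.72 ± 0.24 and -2.0 ± 0.24, and so was the LPS co-receptor Cd14, at -0.55 ± 0.17 and -1.39 ± 0.18. Mrc1 was higher in both, at 0.42 ± 0.13 and 1.24 ± 0.13.

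Of 24 tested myeloid transcription factors other than the 3 above, 12 were lower and 4 higher in Atp6v1a cells of day 13 (median -0.30), and 12 were lower and 3 higher in Grn cells (median -0.45). The 3 higher in Grn cells are no larger a share of the list than the 12.5% over all genes. In Atp6v1a cells the orphan nuclear receptor Nr4a1 (-1.45 ± 0.27) and Klf2 (-1.22 ± 0.15) fell, and Bhlhe41 (2.00 ± 0.15) and Bhlhe40 (1.96 ± 0.19), basic helix-loop-helix repressors tied to macrophage self-renewal, rose. In Grn cells the inhibitor of DNA binding Id3 (-1.33 ± 0.24) fell and the oxysterol receptor Nr1h3 (1.21 ± 0.20) and Bhlhe41 (1.15 ± 0.15) rose. Pik3c3 cells had 7 lower and 5 higher (median -0.33), with Bhlhe41 at 1.99 ± 0.16 and Klf4 at -0.96 ± 0.15, and Npc1 cells had 1 lower and 2 higher (median -0.03).

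Trem2 cells of day 13 had 7 of these factors lower and 3 higher (median -0.27), where the 3 higher are a share near the 11.3% of all genes. Lower among them were the immediate early factor Egr2 at -2.50 ± 0.39 and Bhlhe40 at -2.27 ± 0.30. At day 4 13 were lower and 5 higher in Trem2 cells (median -0.35) and 7 lower and 0 higher in Grn cells (median -0.23). In Trem2 cells of day 4 Egr2 stood at -2.70 ± 0.33 and the lipid-responsive nuclear receptor Pparg at -1.83 ± 0.23, with Id3 at 1.07 ± 0.22. In Grn cells Nr4a1 (-1.58 ± 0.29), Egr2 (-1.11 ± 0.28) and Id3 (-1.03 ± 0.28) were lower. In a direct comparison Id3 was higher in Trem2 than in Grn cells at both days, by 2.09 ± 0.26 and 2.26 ± 0.23.

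The lists around CD11b and the M-CSF receptor were smaller. Of 7 tested integrin genes, 5 were lower and 0 higher in Atp6v1a cells of day 13 (median -0.56), with Itgax, the CD11c chain, at -1.46 ± 0.15 and Itgal, the CD11a chain, at -1.14 ± 0.37. Itgax was also lower in Trem2 cells, at -3.61 ± 0.30 at day 4 and -4.31 ± 0.21 at day 13, and in Grn cells, at -1.12 ± 0.22 and -1.02 ± 0.15. The beta chain Itgb2 was lower in Trem2 cells at both days, at -0.34 ± 0.08 and -0.39 ± 0.08. In Trem2 cells of day 4 2 integrin genes were lower and 2 higher, the latter being Itgal (1.67 ± 0.39) and Itgb1 (0.25 ± 0.10), the beta1 chain. In Grn cells of that day 1 was lower and 1 higher, Itgb1 at 0.41 ± 0.09, and at day 13 2 were lower, Itgax and Itgal (-1.91 ± 0.42). Of 6 tested genes for colony-stimulating factors and their receptors, 4 were lower in Trem2 and 3 in Grn cells of day 4 (medians -0.75 and -0.46), with the GM-CSF receptor chain Csf2ra at -1.60 ± 0.19 and -0.61 ± 0.18. In Atp6v1a cells of day 13 2 were lower and 1 higher, and in Grn and Pik3c3 cells of that day none was called.

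Of 5 tested adhesion receptors besides the pair above, Adgre5, which encodes CD97, was lower in Atp6v1a (-0.89 ± 0.18) and higher in Grn cells (0.62 ± 0.16) of day 13. In Grn cells Adgrl1 stood at -1.36 ± 0.39 and Adgrl2 at -0.80 ± 0.19. Of the same 5 genes, 1 was higher and 2 lower in Trem2 cells of day 4, and 2 were lower in Trem2 cells of day 13. In Grn cells of day 4 1 was higher and 1 lower. No gene of the 5 lists was called in Atp6v1a, Npc1, Pik3c3 or Ctsd cells of day 4 or in Ctsd cells of day 13.

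**Figure D5:**
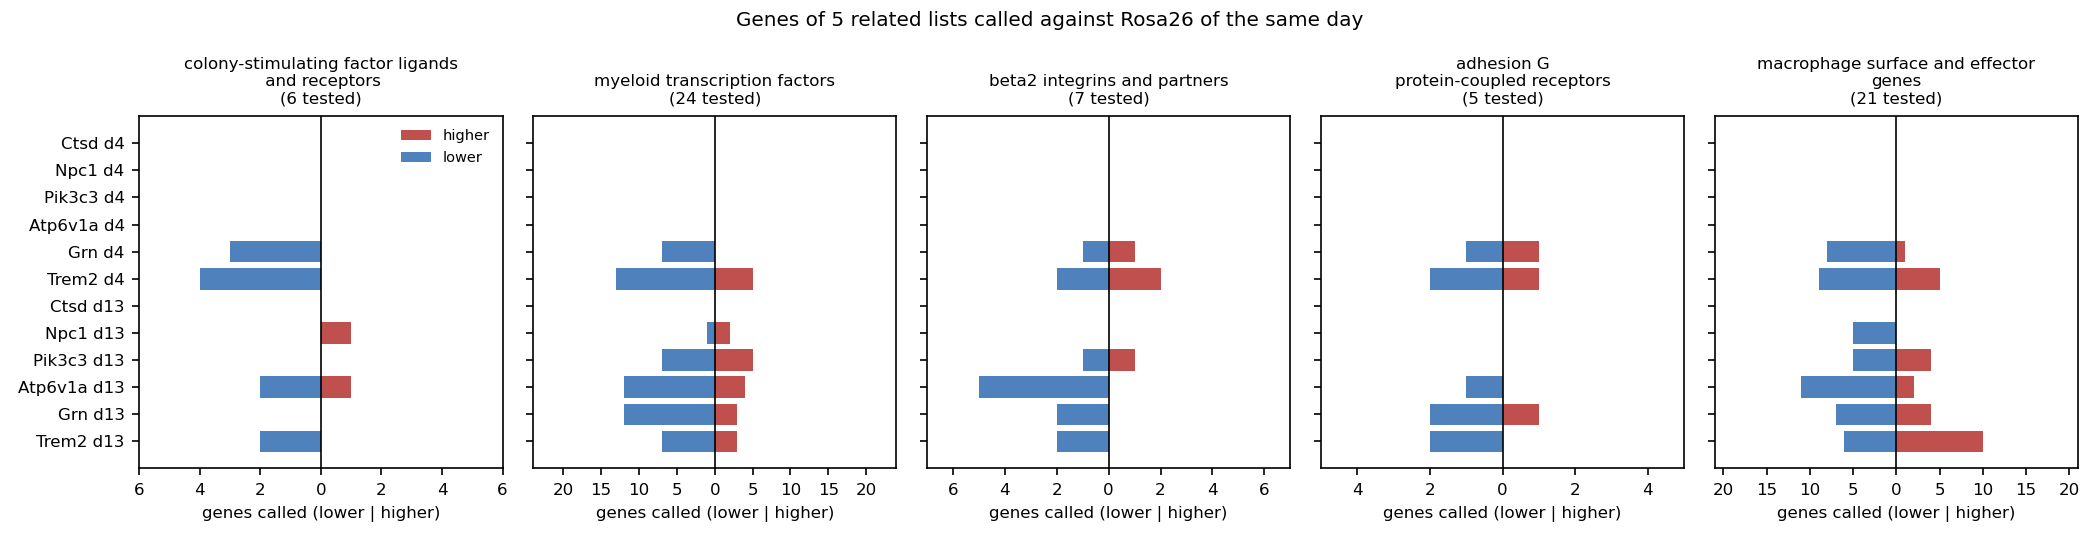
Number of genes of each of 5 related lists that were called higher (right, red) or lower (left, blue) against Rosa26 cells of the same day (adjusted p under 0.05). Each panel's axis spans the number of genes tested in its list, so bar lengths do not compare across panels. Bars are absent for Atp6v1a, Npc1, Pik3c3 and Ctsd at day 4 and for Ctsd at day 13. The largest counts are the 13 lower transcription factors in Trem2 cells of day 4 and the 12 lower in Atp6v1a and in Grn cells of day 13.

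Across the 14 group means with the protocol difference removed, the 7 genes varied together to different degrees. Pearson's r was 0.905 between Csf1r and Irf8, 0.904 between Adgre1 and Csf1r and 0.818 between Adgre1 and Irf8. It was 0.049 between Maf and Spi1 and 0.205 between Adgre4 and Maf. These values describe 14 means from shared controls and libraries and carry no test. By the same measure, among 7961 genes with a mean of at least 10 CPM, the closest genes were Casp2 for Adgre1 (r = 0.955), Dleu2 for Adgre4 (0.963), Igf1 for Csf1r (0.965), Zfp467 for Itgam (0.954), Slc45a4 for Maf (0.974), Lyn for Irf8 (0.947) and Dpep2 for Spi1 (0.876). Igf1 was also the third closest to Adgre1 (0.949), and the ETS-family factor Fli1 was the second closest to Maf (0.972).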

How the data were processed

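RNA from 69 libraries was sequenced as 3' tags with UMIs, 75-base single-end, per the labels' protocols. The authors deposited estimated counts per gene and log2 CPM values. The submitters' processing notes name Salmon, with no version given in the sources used here, and the build GRCm39. Of the deposited estimated counts above 0, 31.2% were not whole, and counts were rounded for testing. The authors' log2 CPM served only as a check, and differed from the values computed here by a median of 0.0206 for the 7 genes.

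Genes were filtered by group (filterByExpr), scaled by TMM and tested with edgeR 4.0.16's quasi-likelihood test (R 4.3.3, limma 3.58.1) in a single fit over all libraries, with a mean per group and a protocol term. P-values were two-sided and adjusted by Benjamini-Hochberg over 12008 genes, and genes under 0.05 are called. Log2 CPM values computed here use a prior count of 2, which the log2 fold changes do not. Values after ± are SEs for log2 fold changes and SDs for CPM. The code was checked on counts simulated from the same model with 200 changed genes, which cannot show how well that model fits these data.

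The members and lists were chosen with earlier results of these data known. All 7 genes were read in every comparison and are given by value, range or count, and other lists give at most 3 called genes a direction, by size of change. Alternatives were DESeq2 1.42.0, its size factors, library totals, no filter, no protocol term, each protocol alone, only the groups compared, a replicate block, and leaving out each library. A brain-associated marker covariate and the removal of Rosa26 replicates 2 and 5 of day 13 were chosen after seeing the data. No pair of libraries in a group was a duplicate (chi-square per degree of freedom 1.69 or more). Same-numbered replicates are not stated to share a marrow pool across groups and were not treated as pairs.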

Additional observations from a re-analysis of the deposited data

Results flagged for a closer look

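Of 98 combinations of gene and group, 4 had a library far from the others of its group on the log2 CPM scale with the protocol difference removed. Chance flags about 1 in 20 groups, or 4.9 of these. Maf was highest in Atp6v1a replicate 5 (9.86) and Pik3c3 replicate 3 (10.06) of day 4. Spi1 was highest in Pik3c3 replicate 5 of day 4 (8.0) and lowest in Rosa26 replicate 5 of day 13 (7.40), the Low-input control.

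The effect of a target differed between days in 13 cases by a test of the difference itself, given as the log2 fold change at day 13 minus that at day 4. For Atp6v1a these were Adgre4 (-2.64), Csf1r (-0.98), Maf (-0.95), Itgam (-0.94), Adgre1 (-0.86) and Irf8 (-0.49). For Pik3c3 they were Adgre4 (-2.42), Itgam (-0.63), Maf (-0.61) and Adgre1 (-0.44). For Grn they were Maf (-0.65) and Itgam (-0.47), and for Trem2 Adgre1 (0.59). Day 13 holds 21 of the 22 Low-input libraries. Without the protocol term the 6 of Atp6v1a, Adgre4, Itgam and Maf of Pik3c3 and Adgre1 of Trem2 passed, and Adgre1 of Pik3c3 and both of Grn did not.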

How the results depend on the processing

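Counts of called genes among the 7 changed by more than 1.5 times in these cases. Without the protocol term they were 3 for Atp6v1a against Pik3c3 at day 13 (5 in the reported fit), 0 for the Grn day difference (2), 1 for Npc1 (2) and 3 for Pik3c3 at day 13 (5), 2 for Trem2 at day 4 (4) and 2 for the Trem2 day difference (1). Within Low-input libraries they were 0 for Npc1 and 1 for Pik3c3 at day 13. With no low-count filter the Grn and Trem2 day differences gave 1 and 2, and without Rosa26 replicates 2 and 5 the Grn day difference gave 1. Rosa26 day 13 against day 4 gave 2 (1 in the reported fit) with DESeq2, its size factors, the brain-associated covariate and only the groups compared, and the Trem2 day difference gave 2 with the last of these and the covariate. Leaving out 1 library gave 1 to 2 for both, and 1 to 3 for Trem2 against Grn at day 4. The direction turned for Irf8 in Trem2 cells of day 13 without the protocol term (-0.11) and for the Csf1r day difference of Grn with the covariate (0.70, called as higher); the cause was not tested.

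Same-numbered replicates deviated together only weakly (correlation -0.103 to 0.396, median 0.0717, over 59 pairs). Of the 59 target libraries so paired, 31 correlated best with the Rosa26 library of their own number. Each had 4 or 5 Rosa26 libraries to match. The matches share these Rosa26 libraries, and the count of 31 was not tested against chance. The reported fit has no term for such a link. The replicate block ended no call and added 6: Rosa26 day 13 against day 4 and the Trem2 day difference gave 2 each, Npc1 at day 13 gave 3 and Trem2 at day 13 gave 4, each with Csf1r added (0.26, 0.62, -0.34 and 0.38). Grn at day 4 gave 4, with Itgam (-0.22), and Trem2 against Grn at day 4 gave 3, with Irf8 (0.30). Over all genes, the Trem2 count at day 13 was 2666, against 5388 without the protocol term and 952 within Low-input libraries. Fitted to the compared groups alone, Trem2 against Grn at day 4 gave no Adgre4 value, since the gene failed the filter there. Adgre4 counts of 3 to 19 in Grn cells of day 4 limit precision there.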
